A study of Mus musculus with 2 samples.

Results

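Elastic fibre and crosslinking genes were followed in cultured mouse aortic vascular smooth muscle cells (VSMCs): Eln, Fbn1, Fbln2, Fbln5, Emilin1, Mfap5, Lox, Loxl1, Loxl2 and Loxl3. These 10 genes were picked by symbol from the 32285 genes counted. The rule is a list of symbols and uses no measured value, but the list was chosen with earlier results of these data known. The cells came from C57BL/6 mice and were grown on plates in 4 ways. Young cells (12 weeks) and old cells (58 to 78 weeks) were the controls, a further set of young cells received 100 nM angiotensin II (AngII), a peptide hormone that drives vessel constriction and remodelling, for 48 h, and a further set of old cells was transfected with 20 nM of a short interfering RNA against the ion channel gene Piezo1 (siPiezo1). The labels also name a non-targeting siRNA pool. The study's text gives nontargeting siRNA to the old cells of a protein comparison, and for the sequenced old cells it was not stated. The groups were marked with hashtags, which are antibodies carrying a DNA tag, mixed, and sequenced as 1 droplet library. A unique molecular identifier (UMI) read near the 3' end lets every captured RNA count a single time.

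Elastic fibres give the aortic wall its recoil. Their core is elastin, the product of Eln, which is laid down on a scaffold of microfibrils that are built from fibrillin-1 (Fbn1) and carry MAGP-2 (Mfap5). Fibulin-2 (Fbln2), fibulin-5 (Fbln5) and emilin-1 (Emilin1) sit at the interface between elastin and microfibrils, and fibulin-5 brings elastin and the crosslinking enzyme LOXL1 together. Lysyl oxidase (Lox) and its relatives (Loxl1, Loxl2, Loxl3) oxidise lysines of elastin and collagen, which lets neighbouring chains crosslink and makes the matrix insoluble. In the aorta, VSMCs are the main makers of elastin, and most of it is made around birth.

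Each hashtag was taken as 1 culture, since nothing told replicate cultures apart, so no test between groups was possible and the spread between cultures is unknown. The 95% intervals given here cover counting error only. A level is given in CPM, the UMIs of a gene per 1000000 UMIs of all cells of a tag. Because a molecule is counted at its end, CPM does not grow with the length of a gene. Neither the labels nor the text of the study pair tags with groups; names follow the numbers in the study's drawing of the experiment, which does not call them tag numbers, and the tag stays beside each name. Piezo1 did not check the siPiezo1 label here, no Piezo1 level is given, and those cells are called "labelled siPiezo1". The study itself reports lower Piezo1 in its siPiezo1-treated old cells by sequencing, PCR and immunostaining.

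The 13045 cells had a median of 7915 UMIs. Tag 1 (young) held 3144 cells, tag 2 (old) 497, tag 3 (young + AngII) 1500 and tag 4 (labelled siPiezo1) 1529, while 1068 cells carried several tags and 5307 (40.7%) none. Separation of tags 2 to 4 was weak, with medians of 67 to 113 UMIs of the own tag against 364 in tag 1. The tags also differed in ways that the age and treatment labels do not name. Cells in which Y-linked genes were read and Xist was not are called Y-only here, and the converse Xist-only. Y-only cells made up 54.1% and 55.5% of tags 1 and 3 but 19.5% and 13.8% of tags 2 and 4. Xist-only cells made up 4.90%, 63.0%, 6.27% and 66.8% of tags 1 to 4. The 7 interferon response genes of a marker list summed to 2910 CPM in tag 1, 84.6 in tag 2, 306 in tag 3 and 93.0 in tag 4. Median UMIs per cell were 6816.5, 10663, 9453.5 and 9792 in tags 1 to 4. The median shares of mitochondrial UMIs were 1.08%, 1.84%, 0.224% and 1.86%. The contractile VSMC list (8 genes) summed to 687 to 1708 CPM, with its lowest gene at 0.871 to 3.77. The endothelial list summed to at most 8.42 and the macrophage and blood list to at most 11.7. The fibroblast list was at 525 to 749, with its highest gene at 448 to 676. In tag 4 the fibroblast sum (749) was above the contractile sum (687).

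Elastin itself was almost unread. Eln (ENSMUSG00000029675; chromosome 5, 134702593 to 134747323, minus strand; positions, matched by gene identifier, are those of GENCODE vM21, build GRCm38) had 20 UMIs in all 13045 cells, or 0.174 CPM, and ranked 17110 by level. It had 5 UMIs in tag 1, 0 in tag 2, 1 in tag 3 and 3 in tag 4. The groups overlapped, and a count of 0 in tag 2 allows up to 3 UMIs among its 5577355, so no difference between tags was detectable at this depth. Eln also had no UMI in the free RNA of near-empty droplets. No fold is given for it, and counts of members below are over the other 9 genes, each of which reached 10 CPM in the pool of all cells.

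The other 9 genes ran from 29.1 CPM (Emilin1) to 722 (Fbln2) in the pool. Lox stood at 604, Mfap5 at 347, Fbn1 at 165, Loxl1 at 117, Loxl2 at 50.7, Fbln5 at 33.4 and Loxl3 at 31.5 CPM. Fbln2 and Lox ranked 180 and 218 among all genes, while the pool held 8462 genes at 10 CPM or more. Many transcripts were thus read for the fibre surface and the crosslinking enzyme and next to none for the core protein. No measure of Eln other than these counts was taken.

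Among the microfibril genes, Fbn1 (ENSMUSG00000027204; chromosome 2, 125300594 to 125507993, minus strand) was at 316, 99.2, 162 and 92.5 CPM in tags 1 to 4, with intervals of 309 to 323, 91.1 to 108, 156 to 169 and 87.9 to 97.3. Mfap5 (ENSMUSG00000030116; chromosome 6, 122505845 to 122529290, plus strand) was at 530.3 CPM in tag 1, 132.5 in tag 2, 640.0 in tag 3 and 111 in tag 4. Both were high in the young cells and low in both old groups, but the AngII-treated cells were below the young cells for Fbn1 and above them for Mfap5. For Fbn1 the intervals of tags 2 and 4 overlapped, and for Mfap5 no neighbouring tags did.

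Of the genes at the elastin and microfibril interface, Fbln2 (ENSMUSG00000064080; chromosome 6, 91212455 to 91272540, plus strand) was at 942 CPM in tag 1, 619 in tag 2, 1139 in tag 3 and 392 in tag 4, with no overlap between neighbours. Fbln5 (ENSMUSG00000021186; chromosome 12, 101746565 to 101819055, minus strand) was at 65.5, 16.0, 33.2 and 19.7 CPM in tags 1 to 4, with intervals of 62.3 to 68.8, 12.8 to 19.6, 30.4 to 36.3 and 17.6 to 22.0. Emilin1 (ENSMUSG00000029163; chromosome 5, 30913402 to 30921277, plus strand) stayed within 23.0 CPM (tag 3) and 36.2 (tag 4), with 32.2 in tag 1 and 31.0 in tag 2. Emilin1 thus had a span of 1.57-fold over the tags against 4.10-fold for Fbln5 and 2.91-fold for Fbln2, and only its value in tag 3 lay apart from its neighbour in the order.

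The crosslinking enzymes were led by Lox (ENSMUSG00000024529; chromosome 18, minus strand), at 1049, 209.6, 1212 and 174 CPM in tags 1 to 4, with intervals of 1036 to 1062, 198 to 222, 1194 to 1230 and 168 to 181. This was the widest span of the 9 genes, 6.96-fold, with no overlap between neighbours. Loxl1 (ENSMUSG00000032334; chromosome 9, 58287738 to 58313186, minus strand) was at 161 CPM in tag 1, 95.7 in tag 2, 108 in tag 3 and 115 in tag 4. Loxl2 (ENSMUSG00000034205; chromosome 14, 69609068 to 69695834, plus strand) was at 84.2, 39.1, 45.7 and 41.4 CPM in tags 1 to 4. Loxl3 (ENSMUSG00000000693; chromosome 6, 83034173 to 83052562, plus strand) was at 59.9, 13.8, 37.3 and 13.9 CPM. All 3 relatives were highest in the young cells, tags 2, 3 and 4 lay close together for Loxl1 and Loxl2, and the intervals of the old and siPiezo1-labelled cells overlapped for Loxl2 and Loxl3.

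**Figure D1:**
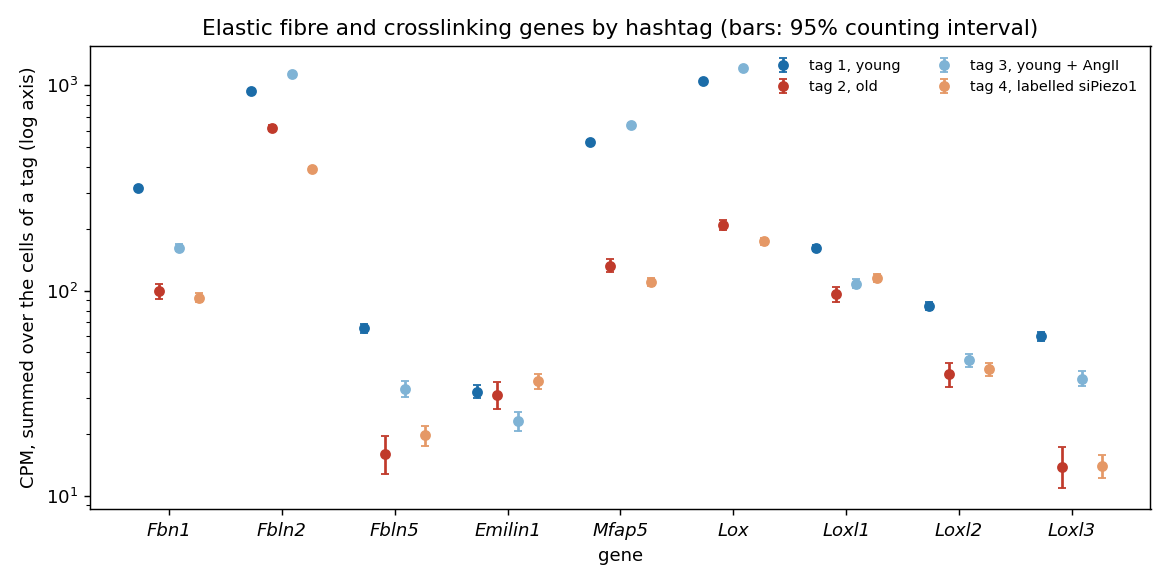
Levels of 9 genes (horizontal axis) in CPM on a log axis, 1 point per hashtag, with bars for the 95% counting interval; Eln is left out because it had 0 to 5 UMIs per tag. Lox, Mfap5 and Fbln2 are high in both young groups and lower in both old groups, and Emilin1 stays between 23.0 and 36.2 CPM.

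The make-up of the lysyl oxidase transcripts differed as well. Lox gave 77.5% of the UMIs of the 4 enzyme genes in young cells (exact Clopper-Pearson interval 77.0 to 77.9), 58.5% (56.3 to 60.7) in old, 86.4% (85.9 to 86.8) in AngII-treated and 50.6% (49.3 to 51.9) in siPiezo1-labelled cells. Loxl1, the relative tied to elastin upkeep, gave 11.9%, 26.7%, 7.70% and 33.4% in the same order. The share of Loxl1 was thus highest where Lox was lowest, and its own level moved less than that of Lox. Loxl2 gave 3.26% to 12.0% and Loxl3 2.66% to 4.43%.

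**Figure D2:**
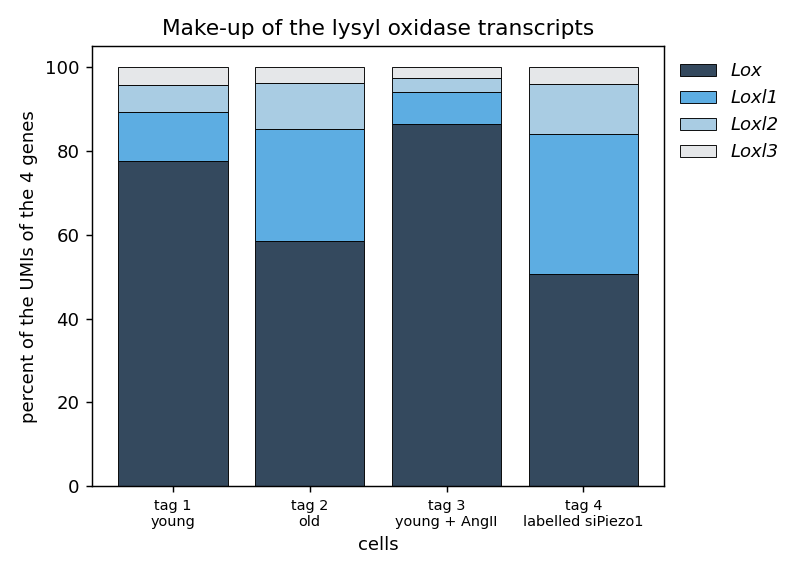
Stacked bars of the percent of lysyl oxidase family UMIs that came from Lox, Loxl1, Loxl2 and Loxl3, 1 bar per hashtag, from 1998 (tag 2) to 32659 UMIs (tag 1). Lox takes 77.5% and 86.4% in the young and AngII-treated cells and 58.5% and 50.6% in both old groups.

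Whether old cells differed from young cells was read from tag 2 against tag 1. All but 1 of the 9 genes were lower in old cells by at least 1.5-fold: 8 lower and 0 higher, against 9.83% of the 8462 genes of at least 10 CPM that were lower by that much, 8.34% that were higher and 18.2% in either direction. Lox had a ratio of 0.200 (0.188 to 0.212), Loxl3 of 0.230 (0.181 to 0.290), Fbln5 of 0.244 (0.195 to 0.302) and Mfap5 of 0.250 (0.232 to 0.269). Fbn1 was at 0.314 (0.288 to 0.343), Loxl2 at 0.464 (0.402 to 0.534), Loxl1 at 0.595 (0.542 to 0.651) and Fbln2 at 0.658 (0.634 to 0.682). Emilin1 did not differ beyond counting error, at 0.964 (0.813 to 1.14). The median ratio of the 9 genes was 0.314 and that of all genes tested 1.02.

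The ratios of old to young cells lay nearer to 1 among Xist-only cells and among cells low in interferon genes for each of the 8 genes, and close to those of all cells among Y-only cells for most. Among Xist-only cells (313 old and 154 young, of which 64.3% were called doublets), 5 of the 9 genes were past 1.5-fold, against 10.7% of all genes tested in this subset, and all were lower: Lox at 0.355, Loxl3 at 0.314, Fbln5 at 0.319, Mfap5 at 0.341 and Fbn1 at 0.549, while Fbln2 turned to 1.15 (1.06 to 1.25). Among Y-only cells (97 old and 1700 young) 8 genes were past it, against 25.9% of all genes tested, with Lox at 0.241. Among the cells with under 500 CPM of the interferon list (482 old and 174 young) 5 were past it, against 8.69% of all genes tested, Lox at 0.468, Loxl3 at 0.463, Fbln5 at 0.582, Mfap5 at 0.427 and Fbn1 at 0.579, while Fbln2 was at 1.03 (0.960 to 1.11). Those 174 were 5.53% of the young cells and unlike the rest of their tag: 35.6% were Xist-only against 3.10% of the other young cells, and their median hashtag count was 176.5 against 375.5. Age, the share of Xist-only cells and the interferon level differ together between tags 1 and 2. How far donor sex, the interferon state and wrong hashtags each enter the difference was not tested.

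**Figure D3:**
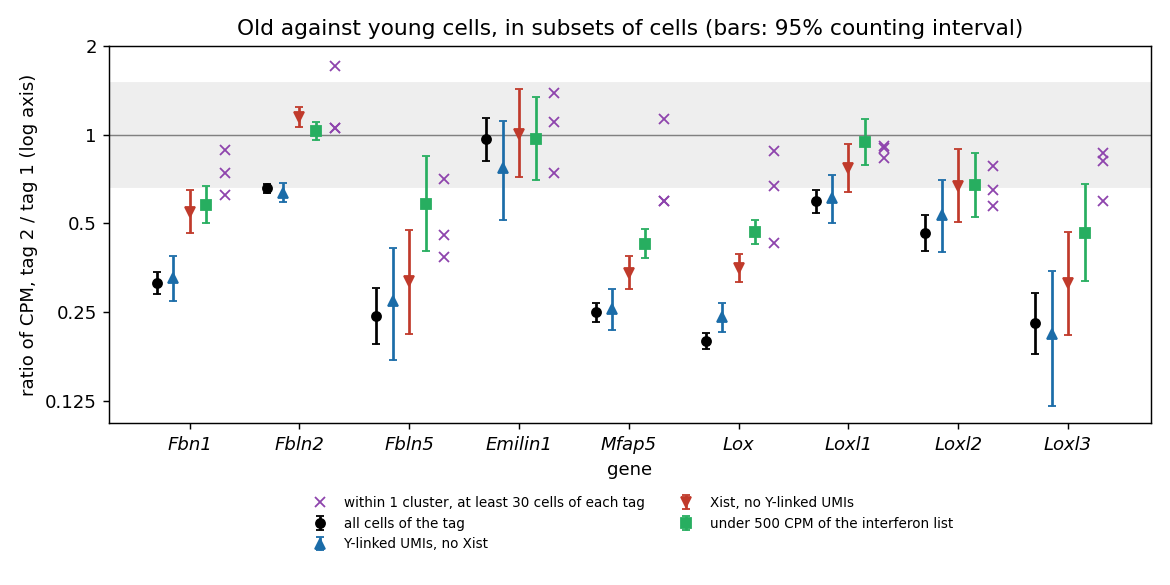
Ratio of CPM in old over young cells (log axis) for 9 genes, in all cells of the tags and in 3 subsets with 95% counting intervals; crosses are single clusters with at least 30 cells of each tag, and the grey band marks less than 1.5-fold. Lox lies below the band in all 4 sets of cells, and Fbln2 moves from 0.658 to 1.15 and 1.03 in the Xist and low interferon subsets.

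Whether AngII moved young cells was read from tag 3 against tag 1. Of the 9 genes, 4 were lower by at least 1.5-fold and 0 higher (background 7.59% lower, 6.90% higher and 14.5% in either direction). Fbln5 had a ratio of 0.507 (0.457 to 0.561), Fbn1 of 0.513 (0.490 to 0.537), Loxl2 of 0.543 (0.497 to 0.593) and Loxl3 of 0.622 (0.563 to 0.687). Lox, Mfap5 and Fbln2 were slightly higher, at 1.16 (1.13 to 1.18), 1.21 (1.18 to 1.24) and 1.21 (1.19 to 1.23). Loxl1 was at 0.671 (0.633 to 0.711), just inside the fold, and Emilin1 at 0.716 (0.629 to 0.814). The median over the 9 was 0.671 against 1.03 for all genes tested.

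In cells low in interferon genes Lox, Mfap5 and Fbln2 again had the highest ratios, but no gene was lower by 1.5-fold or more. Among cells with under 500 CPM of the interferon list (1210 with AngII and the 174 young cells described above), where 13.7% of all genes tested were past the fold, 3 genes were higher by over 1.5-fold, Lox at 2.62, Mfap5 at 1.98 and Fbln2 at 1.89, and none was lower, with Fbln5 at 1.20 (0.882 to 1.66), Loxl3 at 1.28 (0.949 to 1.76) and Fbn1 at 0.930. Among Y-only cells (833 and 1700), Fbln5 was at 0.494, Fbn1 at 0.481 and Lox at 1.14. The comparison shares its young cells with that of old against young cells, so the ratios of both lean on the same 3144 cells.

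Whether cells labelled siPiezo1 differed from old cells was read from tag 4 against tag 2. A single gene of the 9, Fbln2, was past 1.5-fold, at 0.632 (0.606 to 0.659), with a background of 0.945% lower, 1.77% higher and 2.72% in either direction. Mfap5 and Lox were lower by less, at 0.835 (0.766 to 0.911) and 0.830 (0.775 to 0.890), and Loxl1 was higher at 1.20 (1.09 to 1.32). For Fbn1, Fbln5, Emilin1, Loxl2 and Loxl3 the ratios ran from 0.933 to 1.23 and each interval held 1, the widest being that of Fbln5 (0.972 to 1.58). The median over the 9 was 1.01, as was that of all genes tested. Without cluster 12, described below, which held 277 of the cells labelled siPiezo1 and 6 old cells, no gene of the 9 was past the fold, with Fbln2 at 0.705 (0.676 to 0.735), Mfap5 at 0.946 and Lox at 0.924. Fbln2 was at 0.538 among Xist-only cells (1021 and 313) but at 0.838 (0.765 to 0.917) among Y-only cells (211 and 97). Among the latter Emilin1 alone of the 9 was past the fold, at 1.73 (1.14 to 2.69), where 12.1% of all genes tested were. Mfap5 was at 1.21 (1.005 to 1.46) among these Y-only cells. With a tag at least 3 times the next, Lox was past the fold besides Fbln2, at 0.568 (0.510 to 0.633), where 7.84% of all genes tested were.

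**Figure D4:**
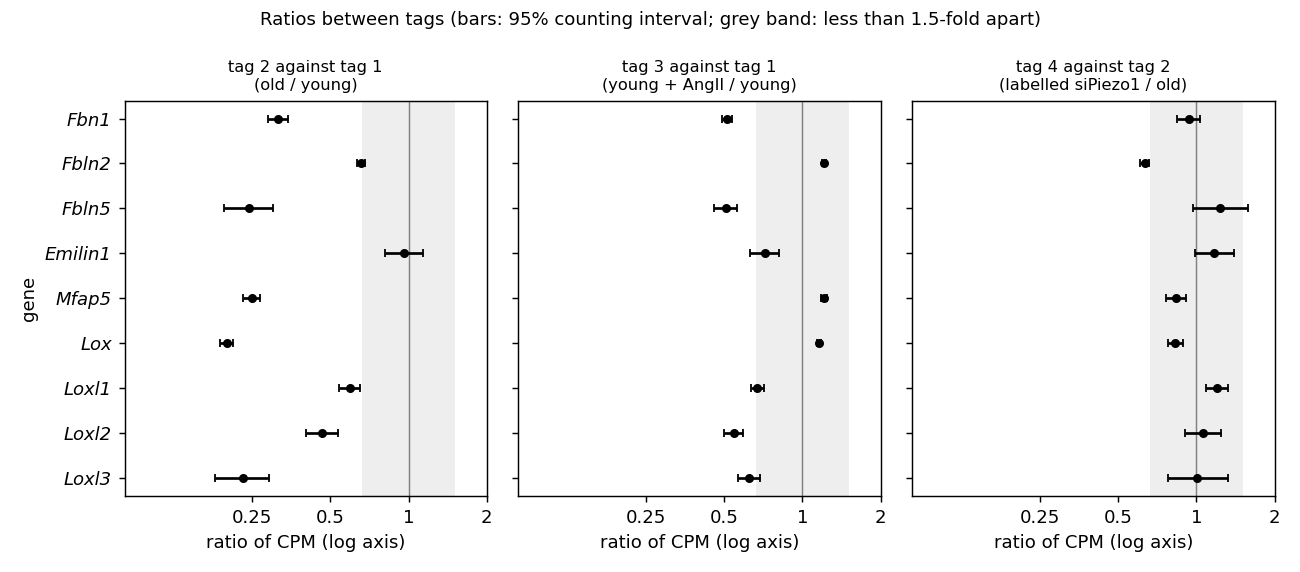
Ratios of CPM (log axis) of 9 genes in the 3 comparisons, with bars for the 95% counting interval and a grey band for less than 1.5-fold apart. In old against young cells 8 points lie left of the band, with AngII 4, and for the cells labelled siPiezo1 only Fbln2.

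RNA free in the droplets would bring less than the levels measured. It made up an estimated 5.57% of a cell's UMIs, an upper estimate, which would bring 27.8 CPM of Lox and 39.0 of Fbln2 against lowest levels of 174 and 392 CPM. With it subtracted the ratio of Lox in old against young cells was 0.178. For the rarer genes the same share would bring 1.81 CPM of Fbln5 and 1.89 of Loxl3, against lowest levels of 16.0 and 13.8 CPM.

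Counts per cell were compared after thinning each cell to 5000 UMIs, which left out 747, 21, 136 and 114 cells of tags 1 to 4. At least 1 UMI of Lox was then found in 93.6%, 43.9%, 91.1% and 36.4% of the cells of tags 1 to 4 (94.4%, 59.8%, 93.1% and 51.1% before thinning). The median was 5 UMIs per cell in tags 1 and 3 and 0 in tags 2 and 4. In old cells the tenth of cells with the most Lox held 53.7% of its UMIs, and the highest cell 24 UMIs, against 25.5% and 26 in young cells. Lox was thus read from a smaller share of old cells, and single cells of tag 2 still reached counts like those of the highest young cells. Of the 497 cells of tag 2, 21.7% were called doublets, and 179 had a tag at least 3 times the next. Whether the high cells were doublets or wrongly tagged was not tested.

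Fbln2 was spread more evenly: 96.0%, 84.0%, 96.8% and 63.5% of the thinned cells of tags 1 to 4 had a UMI, with medians of 4, 2, 5 and 1. For Mfap5 the shares were 80.6%, 39.1%, 87.9% and 29.3%, and for Fbn1 71.9%, 32.4%, 50.9% and 31.1%. Emilin1 was found in 11.0% to 16.0% of cells in every tag, and Fbln5 in 27.1%, 6.93%, 13.7% and 8.62%. No cell type known to lack these genes was present in number to give a background share.

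Cells were also grouped without the 10 genes into 14 clusters of at least 1% of cells, each called by its leading genes. Each of the 9 genes was at least 2-fold apart between its highest and lowest cluster. The share of all genes that far apart was not counted, so this count does not set the 9 genes apart. Fbn1 spanned 31.8-fold, from 380.3 CPM in cluster 2 (Ifit3, Ifit3b, Slfn5) to 11.9 in cluster 11 (Prl8a9, Crct1, Maff), Mfap5 28.3-fold, Lox 20.4-fold and Loxl3 14.8-fold. Fbln2 spanned 9.51-fold, Loxl2 5.69-fold, Loxl1 4.60-fold, Fbln5 4.48-fold and Emilin1 2.34-fold.

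Lox was highest in cluster 2, at 1297 CPM, where 99.7% of tagged cells were young, and in cluster 3 (Lce1g, Serpinb2, Zfp804a), at 1212, where 89.3% were AngII-treated. It was lowest in cluster 12 (C1qtnf7, Lmo7, Platr16), at 63.6 CPM, where 95.5% of tagged cells were labelled siPiezo1, in the dividing cluster 5 (Aspm, Cenpa, Kif2c), at 85.8, and in cluster 1 (Clu, Csf3, Sorcs1), at 99.2. Mfap5 followed it, from 717 CPM in cluster 3 to 25.3 in cluster 12. Fbln2 ran from 1167 CPM in cluster 6 (Ccne2, Slfn9, Ccne1) to 123 in cluster 12.

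Dividing clusters held both low and high levels. The dividing list summed to 1901.5 CPM in cluster 5 and 1629 in cluster 9 (Cdkn3, Psmb9, Ckap2l), but Lox was at 85.8 CPM in the former and 1111 in the latter, where all tagged cells were young. Cluster 8 (Actg2, Cnn1, Gabrb1), which had 5 contractile markers among its top genes and the highest contractile sum, 3907 CPM, held Lox at 339 CPM, Fbln2 at 776, Fbn1 at 116 and Loxl3 at 11.8, next to the lowest Loxl3 of any cluster (4.78 in cluster 11). Emilin1 was within 16.1 to 37.7 CPM everywhere, and its highest cluster was cluster 12, the lowest for Lox, Mfap5 and Fbln2. Eln had at most 8 UMIs in any cluster (cluster 4).

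**Figure D5:**
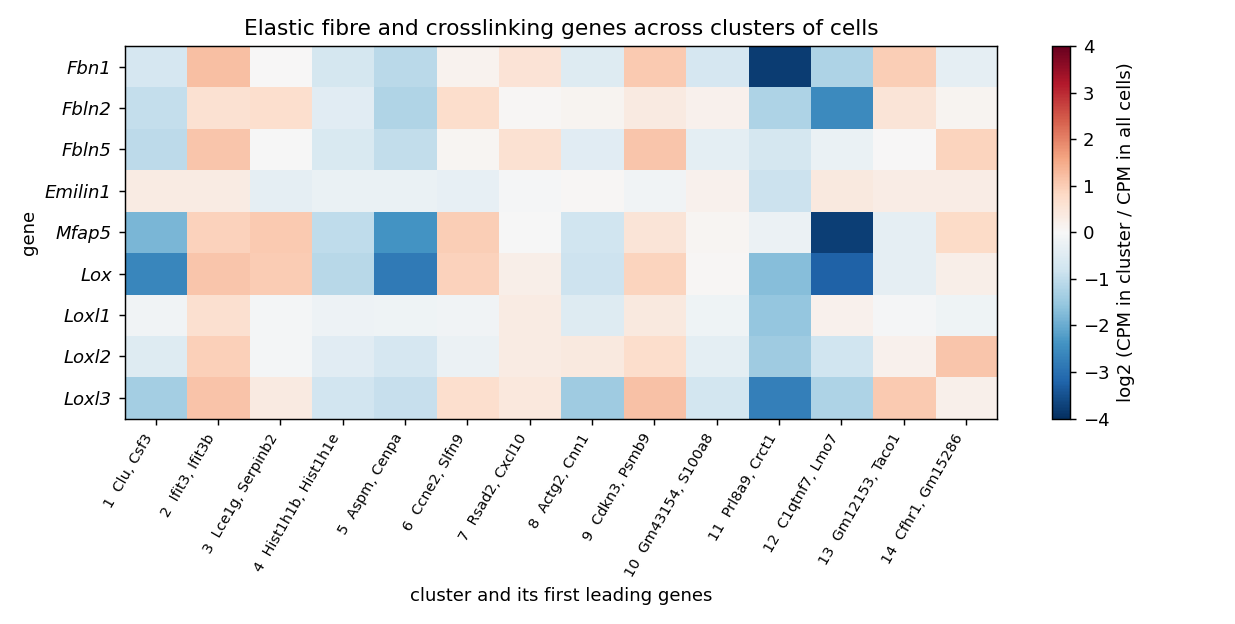
Log2 ratio of each gene's CPM in a cluster to its CPM in all cells (colour), for 9 genes (rows) and the 14 clusters (columns, with leading genes). Lox, Mfap5 and Fbln2 are low in clusters 1, 5 and 12, Fbn1 and Loxl3 are lowest in cluster 11, and Emilin1 varies least.

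Across the 14 clusters the genes fell into patterns, given as descriptions since clusters share cells' libraries and tags. Mfap5 and Lox had a Pearson r of 0.94 on log2 CPM, Fbln2 and Lox 0.92 and Fbln2 and Mfap5 0.89. Fbn1 and Loxl3 had an r of 0.92 and Fbn1 and Loxl1 0.86, but Fbn1 and Mfap5, partners in microfibrils, only 0.41. Loxl1 was barely alike to Mfap5, at 0.08, and Emilin1 had an r of -0.22 with Mfap5 and -0.04 with Lox.

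Among 3287 genes of at least 50 CPM, the genes most like each member across clusters were found too. Prss23, a serine protease gene, was nearest to Lox at 0.99, followed by Vamp5 and Cav1 at 0.97 each, and Vamp5 was also second to Klk8 (0.97) for Mfap5, at 0.96. Nearest to Fbln2 were Adcyap1r1 (0.96) and Ankrd1 (0.95). Fbln5 was nearest to H2-K1, a major histocompatibility gene, at 0.98 and to the interferon response genes Ifi44 and Ifi211 at 0.97. Loxl2 was nearest to Cxcl10 (0.93), Loxl3 to Ebf1 (0.99), Fbn1 to Zc2hc1a and Col8a1 (0.97 and 0.96), Loxl1 to Pcdh17 (0.97) and Emilin1 to Pappa (0.83). Clusters 2, 7, 9 and 14, the highest in the interferon list, drew 97.0% to 100% of their tagged cells from tag 1. Of the cells of cluster 7, 83.1% were called doublets. Likeness to interferon genes and a high level in tag 1 thus cannot be told apart across these clusters.

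Fbln5 is shown with its sequence because its clusters followed interferon and histocompatibility genes and its windows lie outside annotated exons but for 1 base of the second, which was left out of the print. Promoters were looked up for 9 members, Eln among them and Lox not. RefSeq promoters were at hand for 4 (Fbn1, Fbln2, Fbln5 and Emilin1), and Fbln5 has 2 start sites there. The bases before each (GRCm38.p6, minus strand, chr12:101819120-101819369 and chr12:101818485-101818733) are given 5′ to 3′, with capitals for GGGCGG or its reverse complement, the SP1 motif:
Fbln5 first start: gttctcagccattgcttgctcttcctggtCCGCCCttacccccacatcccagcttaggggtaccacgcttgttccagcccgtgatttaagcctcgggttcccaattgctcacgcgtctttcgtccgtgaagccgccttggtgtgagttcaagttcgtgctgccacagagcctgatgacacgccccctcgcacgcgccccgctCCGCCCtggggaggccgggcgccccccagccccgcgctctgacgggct
Fbln5 second start: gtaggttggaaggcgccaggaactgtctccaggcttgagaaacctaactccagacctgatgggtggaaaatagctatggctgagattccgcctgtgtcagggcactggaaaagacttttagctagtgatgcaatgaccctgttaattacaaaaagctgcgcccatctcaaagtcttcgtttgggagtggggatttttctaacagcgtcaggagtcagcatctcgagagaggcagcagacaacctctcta
Searched on both strands of the 250 bases before a start, the first window held 2 SP1 motifs and the second none, and neither held the TATA box (TATAAA), the TEAD motif (CATTCC), the AP-1 motif (TGANTCA) or the interferon response motif. Of 32851 promoters 32.7% hold the SP1 motif, 12.4% the TATA box, 12.6% the TEAD motif, 6.75% the AP-1 motif and 2.98% the interferon response motif. The windows of Fbn1, Fbln2 and Emilin1 lie wholly within annotated exons and are not printed. Those of Fbn1 and Fbln2 each held 1 SP1 motif, that of Fbn1 also 1 interferon response motif, and that of Emilin1 none of the 5. A match is a description and not a site.

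Ratios were also taken within single clusters. Against the ratio over all cells, 23 of 27 lay nearer to 1 for old against young cells, 25 of 45 with AngII and 17 of 36 for the cells labelled siPiezo1. Of the clusters, 3 held at least 30 old and 30 young cells. Lox there was at 0.430 to 0.883 of the young level, below 1 in all 3. So were Fbn1 (0.624 to 0.886), Fbln5 (0.384 to 0.709), Loxl1, Loxl2 and Loxl3, while Fbln2 was above 1 in all 3 (1.05 to 1.71). Mfap5 was at 0.597 in clusters 1 and 4 but at 1.13 (0.817 to 1.59) in cluster 8. Emilin1 ran from 0.740 to 1.38, with each interval holding 1. These clusters held few young cells: 53 in cluster 1, of which 58.5% were Xist-only, 61 in cluster 4, of which 83.6% were called doublets, and 33 in cluster 8. In them every counting interval of Loxl1 and Loxl3 held 1. So did those of Fbln2 in clusters 1 and 4, Lox in cluster 8 and Fbn1 in clusters 1 and 8. The intervals of Fbln5 in cluster 1 and of Loxl2 in clusters 4 and 8 held 1 as well. With AngII, over 5 clusters, Lox ran from 0.743 to 1.34 and Fbn1 from 0.551 to 1.01. Fbln5 ran from 0.243 to 1.76 and Loxl2 from 0.351 to 1.13, each above 1 in 2 clusters. Loxl3 ran from 0.593 to 1.505 and, like Fbn1, was above 1 in 1 cluster. For Fbn1, Fbln5, Loxl2 and Loxl3, each ratio above 1 had an interval that held 1. Of the 58 young cells in cluster 3, 63.8% were called doublets, and of the 36 in cluster 10, 77.8%. In cluster 4, 86% of the 100 AngII-treated cells were called doublets. Cluster 1 held 31 AngII-treated cells and cluster 13 held 32 young cells. For the cells labelled siPiezo1, over 4 clusters, Fbln2 was below 1 in all 4 (0.568 to 0.915). Loxl1 (1.16 to 1.18) and Loxl2 (1.09 to 1.55) were above 1 in all 4. The interval of Fbln2 held 1 in cluster 8 only. Those of Loxl1 and Loxl2 held 1 in each but cluster 1, where Loxl2 was at 1.55 (1.18 to 2.04).

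A wider list of the pathway was counted in the same way. Of all genes tested, 9.83% were lower and 8.34% higher in old against young cells, and 7.59% and 6.90% with AngII. For the cells labelled siPiezo1 the shares were 0.945% and 1.77%, and all these shares stand beside each of the 3 lists below. Of 13 further microfibril and fibulin genes, 10 reached 10 CPM. In old against young cells 3 of them were lower, Efemp1 (fibulin-3, 0.431), Efemp2 (fibulin-4, which elastic fibre assembly needs, 0.662) and Emilin2 (0.579), and Ltbp1, which tethers latent TGF-beta to microfibrils, was higher at 1.65 (1.56 to 1.75), from 187 CPM in young to 309.6 CPM in old cells. Emilin2 stayed past the fold in 16 of 16 alternative settings, Efemp1 in 15, Ltbp1 in 12 (not with either stricter hashtag rule, nor among Xist-only or low interferon cells) and Efemp2 in 8. With AngII, Fbn2, Mfap2 and Emilin2 were lower (0.340, 0.345 and 0.645) and Ltbp2 higher at 1.90 (1.80 to 2.01). Fbn2 and Mfap2 stayed so in 16 of 16 alternatives, Ltbp2 in 15 and Emilin2 in 13. Fbn2 was at 3.15 CPM (47 UMIs) with AngII and 9.25 CPM in young cells, both under 10 CPM, and at 11.0 CPM in the pool. For the cells labelled siPiezo1 only Fbn2 was past the fold, at 1.54 (1.09 to 2.23) from 40 UMIs in old cells. This call held in 9 of 16 alternatives, was lost in 6, and turned among Y-only cells, where Fbn2 was lower by over 1.5-fold.

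Of 10 further crosslinking genes 8 reached the level, and 4 were lower in old cells. These were the lysyl hydroxylases Plod1 (0.521), Plod2 (0.622) and Plod3 (0.408), which prepare collagen for crosslinking, and the transglutaminase Tgm2 (0.466). Tgm2 stayed lower in 15 of 16 alternatives, Plod3 in 14, Plod1 in 13 and Plod2 in 12. Plod2 was not called with either stricter hashtag rule. Of the 4 only Tgm2 was called among Xist-only cells, and none among low interferon cells. With AngII Plod2 was lower (0.634) and Tll1, a protease of the family that activates pro-lysyl oxidase, was higher at 2.80 (2.71 to 2.89), at 677 against 242 CPM. For the cells labelled siPiezo1 Tll1 was lower than in old cells at 0.653 (0.605 to 0.707) and stayed so in 10 of 16 alternatives, with the losses including the doubled hashtag cutoffs, cells weighted equally, Y-only cells and cells outside cluster 12. With AngII Tll1 was higher in 16 of 16 and Plod2 lower in 14, not among Xist-only or low interferon cells. Loxl4 and Postn did not reach 10 CPM.

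Of 11 genes of elastin breakdown and its inhibitors 8 reached the level, while the elastases Mmp9 and Mmp12 and the cathepsin Ctss did not (at most 0.826 CPM in the pool). In old cells 4 were lower: the inhibitors Timp1 (0.482, from 4037 to 1945 CPM), Timp2 (0.659), Timp3 (0.622) and Cst3, which inhibits cathepsins (0.606). Timp1 stayed lower in 16 of 16 alternatives, Cst3 in 13, Timp3 in 11 and Timp2 in 10. With a tag at least 3 times the next, Timp1 and Cst3 were called, and with doubled hashtag cutoffs Timp1 and the protease Ctsk. With AngII the gelatinase Mmp2 (0.575) and Cst3 (0.536) were lower. Cst3 stayed so in 14 of 16 alternatives and Mmp2 in 13, and neither was called among Xist-only or low interferon cells. For the cells labelled siPiezo1 Mmp2 was higher than in old cells at 1.68 (1.47 to 1.92), at 80.3 against 47.9 CPM, and Timp3 lower at 0.641 (0.585 to 0.704). Both were within the fold among Y-only cells, and Timp3 also without cluster 12. Medians of the 3 wider lists were 0.675 to 0.853 in old against young cells, 0.818 to 0.926 with AngII and 0.961 to 1.18 for the cells labelled siPiezo1. In the low interferon subset, with its 174 young cells, the counts in old against young cells were 2 (Fbn2 and Emilin2), 0 and 1 (Timp1) lower in place of 3, 4 and 4, and none was higher.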

How the data were processed

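For mouse VSMCs the authors deposited 1 matrix of raw UMI counts (32285 genes, 4 hashtags, 2472397 barcodes), made with Cell Ranger 4 per the file headers. The genome build counted was not given in the sources used here. A cell had at least 2218 UMIs and 200 genes (13045 cells, 115033686 UMIs). It belonged to a tag if only that hashtag exceeded its cutoff (36, 52, 61 and 41 UMIs for tags 1 to 4). Summed counts gave CPM with exact Poisson intervals, ratios had exact binomial intervals, and shares exact Clopper-Pearson intervals (95%, counting error only). A ratio was called past 1.5-fold among genes of at least 10 CPM in the pool. With 1 culture per tag no test was made. Cells were clustered in scanpy 1.11.5 (2000 variable genes without the members, 30 components, 20 neighbours, Leiden resolution 0.8). Doublets called with Scrublet at an expected rate of 0.1 were 23.4% of cells, far above that rate, and were kept. Free RNA came from barcodes of 1 to 100 UMIs, its share from Xist in cells with at least 2 Y-linked UMIs. Ratios were tested on simulated data. Named were the 10 members, every gene of 3 wider lists past 1.5-fold, and the 3 genes most like a member across clusters. Members and lists were chosen with earlier results of these data known. The closing section gives the alternatives.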

Additional observations from a re-analysis of the deposited data

How the results depend on the processing

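No paired analysis was possible because each group was 1 culture, and no replicate could be left out. Over 432 recomputed ratios (9 genes, 3 comparisons, 16 alternatives, 4 of them chosen after seeing the data), 309 stayed within the counting interval of the reported ratio, 119 moved out of it, and 4 of the ratios past the fold crossed 1: Fbln2 in old against young cells, at 1.15 among cells with Xist only and 1.03 among cells low in interferon genes, and Fbln5 and Loxl3 with AngII, at 1.20 and 1.28 in the latter. Counts of genes past the fold in old against young cells were 5 in each of those subsets in place of 8, and 7 or 8 under the other alternatives run at 1.5-fold. With AngII they were 2 among cells with Xist only and 0 at a fold of 2, in place of 4; among cells low in interferon genes 3 were past it, all higher and none of those 4. For the cells labelled siPiezo1, in place of 1, they were 2 with a tag at least 3 times the next (Fbln2 and Lox). They were 2 without dividing cells (Fbln2, and Fbln5 higher) and 3 among cells with 2 to 15% mitochondrial UMIs (Fbln2, Mfap5 and Lox). Among cells with Xist only they were 3 (Fbln2, Mfap5, and Fbln5 higher), and they were 0 without cluster 12 or at a fold of 2. The 1 among Y-only cells was Emilin1 in place of Fbln2. The cause of these changes was not tested. In that comparison the share of all genes past the fold went from 2.72% to between 4.35% and 12.1% in 8 subsets of cells, thinning or hashtag rules, and to 11.2% at a floor of 1 CPM. It was 22.1% with AngII among cells with 2 to 15% mitochondrial UMIs, and 10.7% and 8.69% in old against young cells in the Xist and low interferon subsets. Scaling by the median ratio moved log2 ratios by at most 0.05 and put Loxl1 past the fold with AngII, as did 7 other alternatives. All 9 genes stayed at least 2-fold apart between clusters at resolution 0.4 and without dividing, S-phase and interferon genes. The share of all genes was not counted there either. Depth limits Eln most, with 0 to 5 UMIs per tag, and then Loxl3 in old cells, with 77 UMIs.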

Other observations

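The 5307 cells with no hashtag above its cutoff entered no comparison. In them Lox was at 283 CPM (278 to 288), Mfap5 at 233 (229 to 238), Fbln2 at 559.6 (552 to 567), Fbn1 at 114 (111 to 117) and Emilin1 at 26.8 (25.3 to 28.4). Each of these but Emilin1 lay between the levels of the old and the young cells or, for Fbln2, between those of the cells labelled siPiezo1 and the old cells. Of the 20 Eln UMIs in the pool, 10 were in these cells. In the 1068 cells with several hashtags, of which 59.7% were called doublets, Lox was at 791 CPM, Mfap5 at 411, Fbln2 at 797 and Fbn1 at 169.7 (163 to 177).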
